A study of Mus musculus with 36 samples.

Results

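The autosomal H3K9me3 bins that were compared between male offspring of obese and control dams at 3 weeks of age are described here. They are the rows on chromosomes 1 to 19 in the authors' deposited table of this comparison, 158810 of its 159357 rows. The 6 tables of the series hold 786789 rows in all. The series has 32 H3K9me3 ChIP-seq libraries of mouse liver in 8 groups of 4, by sex, age and maternal diet, and 4 input libraries. The comparison sets 4 livers of MM_3w (maternal obesity, MO, male) against 4 of CM_3w (control male), and a positive log2 change means more H3K9me3 with MO.

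Both groups were 3-week-old male pups taken before weaning, on a C57BL/6J background. Their dams came from a Reg3g fl/fl colony and were mated to wild-type C57BL/6J males, so the pups of both groups carried floxed Reg3g (fl/+ or fl/fl), and no Cre was named. MO dams ate a Western-style diet and control dams ate chow, before mating and through pregnancy and lactation. The diet of the dam before birth, that of lactation and the pup's own liver fat cannot be told apart in this comparison. How many dams and litters the 4 pups of each group came from is not given in the sources used here. Pups of a group may share a litter, so litter cannot be told apart from diet either. Whole frozen liver was used, so cell types were mixed, and a change in the mark cannot be told apart from a change in the share of a cell type. The tables used here give 1 change, 1 average signal and 1 p-value per bin and no value per library, so library depth and the spread between the 4 livers of a group are unknown here. An approximate standard error (SE) was taken from each change and its p-value.

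H3K9me3, trimethylation of lysine 9 of histone H3, marks constitutive heterochromatin. SETDB1 and the SUV39H enzymes write it, HP1 proteins read it and KDM4 demethylases remove it. It silences transposable elements, covers the zinc finger gene clusters, olfactory and vomeronasal receptor genes and other gene families, and helps to keep genes of other lineages off in hepatocytes. KRAB zinc finger proteins bring SETDB1 to their targets through TRIM28.

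The central bases of the 3 higher and 3 lower promoter or gene body bins with the smallest p-values are printed to show what kind of sequence carried the differences; the exonic bin of Dmxl1 is not among them. They come from the forward strand of mouse GRCm38 (mm10), and capitals mark CpG sites, the sites of DNA methylation.
P2rx3 (higher; chr2:85012366-85012665): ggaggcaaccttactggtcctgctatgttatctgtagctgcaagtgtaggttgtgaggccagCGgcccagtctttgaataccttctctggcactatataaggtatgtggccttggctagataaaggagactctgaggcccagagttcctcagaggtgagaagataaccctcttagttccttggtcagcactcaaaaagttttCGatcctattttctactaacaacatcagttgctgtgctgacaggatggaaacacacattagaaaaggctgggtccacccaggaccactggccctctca
Zfp260 (higher; chr7:30102195-30102494): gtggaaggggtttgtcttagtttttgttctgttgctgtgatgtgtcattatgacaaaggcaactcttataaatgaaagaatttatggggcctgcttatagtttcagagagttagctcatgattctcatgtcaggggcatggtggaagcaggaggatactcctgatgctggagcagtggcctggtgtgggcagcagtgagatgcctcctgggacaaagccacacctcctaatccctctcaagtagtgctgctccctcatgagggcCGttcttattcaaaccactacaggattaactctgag
Unc13a (higher; chr8:71658968-71659267): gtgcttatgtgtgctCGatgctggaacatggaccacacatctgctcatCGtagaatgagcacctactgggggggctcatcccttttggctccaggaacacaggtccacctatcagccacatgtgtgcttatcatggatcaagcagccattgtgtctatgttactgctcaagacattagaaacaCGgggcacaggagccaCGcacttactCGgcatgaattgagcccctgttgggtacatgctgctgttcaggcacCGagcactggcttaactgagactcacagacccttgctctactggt
Fam171a2 (lower; chr11:102445736-102446035): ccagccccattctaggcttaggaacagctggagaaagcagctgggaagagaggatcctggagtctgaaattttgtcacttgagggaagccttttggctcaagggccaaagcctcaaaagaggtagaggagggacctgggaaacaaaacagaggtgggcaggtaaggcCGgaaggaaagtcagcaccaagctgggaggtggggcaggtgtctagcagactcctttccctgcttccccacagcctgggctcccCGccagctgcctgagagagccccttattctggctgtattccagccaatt
St6galnac3 (lower; chr3:153690092-153690391): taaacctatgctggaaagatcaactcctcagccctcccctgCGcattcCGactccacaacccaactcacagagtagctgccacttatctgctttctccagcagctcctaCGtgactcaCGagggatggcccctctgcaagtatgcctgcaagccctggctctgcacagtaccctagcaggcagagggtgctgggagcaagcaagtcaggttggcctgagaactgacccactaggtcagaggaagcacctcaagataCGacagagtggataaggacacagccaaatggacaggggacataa
Yeats2 (lower; chr16:20226872-20227171): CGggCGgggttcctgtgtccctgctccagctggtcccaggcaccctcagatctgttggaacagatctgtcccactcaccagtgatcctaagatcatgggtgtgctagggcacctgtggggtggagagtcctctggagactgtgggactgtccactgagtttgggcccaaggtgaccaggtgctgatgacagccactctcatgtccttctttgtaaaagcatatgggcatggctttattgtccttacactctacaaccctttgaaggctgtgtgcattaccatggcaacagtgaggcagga
None of the 6 was CpG-rich: the stretches held from 1 to 6 CpG sites in 300 bases. Only those at Zfp260 (67.0%) and Yeats2 (50.7%) held soft-masked repeat sequence, and the other 4 held none.

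At the unadjusted p under 0.001 that the study used for maternal diet, 441 of the 158810 bins were called, 0.278% of all. H3K9me3 was higher with MO in 294 bins (0.185%) and lower in 147 (0.0926%), so 66.7% were higher (exact binomial 95% interval 62.1 to 71.1%, which covers counting error only). At an unadjusted p under 0.05 the share was 8.83% of the bins, 8062 higher (5.08%) and 5962 lower (3.75%). No bin passed an FDR of 0.05 in the authors' edgeR exact test: 0 bins did, 14024 had an unadjusted p under 0.05, and the smallest FDR in the authors' table was 0.211, shared by 9 bins. The called bins are therefore a ranked list and not a set with a controlled false discovery rate.

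How many calls uniform p-values would give depends on how many bins were tested. Each peak of the table is listed with 1 bin, while peaks longer than 500 bp had been cut into bins of that size. The ratio of FDR to p in the authors' table corresponds to an adjustment over at least 275525 bins, against 159357 listed, and how the listed bin was chosen is not given in the sources used here. Among 28010 peaks of 5 or more bins that were also in the comparison of control males at 3 and 8 weeks, only 35.8% were listed with the same bin. The share of listed bins with p under 0.05 rose from 6.56% in single-bin peaks to 51.1% in peaks over 10 kb. A choice of the bin by small p would give such a rise, but the rule was not tested. Uniform p-values over 275525 bins would give 275.5 calls, and the whole table with X and Y held 443, at most 1.61 times as many, since that number of bins is a minimum. If all 512463 bins of 500 bp in the listed autosomal peaks had been tested, uniform p-values would give 512 calls, more than the 441 seen. The tables thus do not show an excess of calls over all peaks. The 56548 peaks of a single bin leave no choice of bin: there 141 bins were called, where uniform p-values would give 56.5, and 118 of the 141 were higher with MO (83.7%, exact binomial interval 76.5 to 89.4%). Peaks were kept if seen in enough replicates of a condition, so a short peak could be listed through the group where it was high. This excess and its direction cannot be told apart from that selection.

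**Figure D1:**
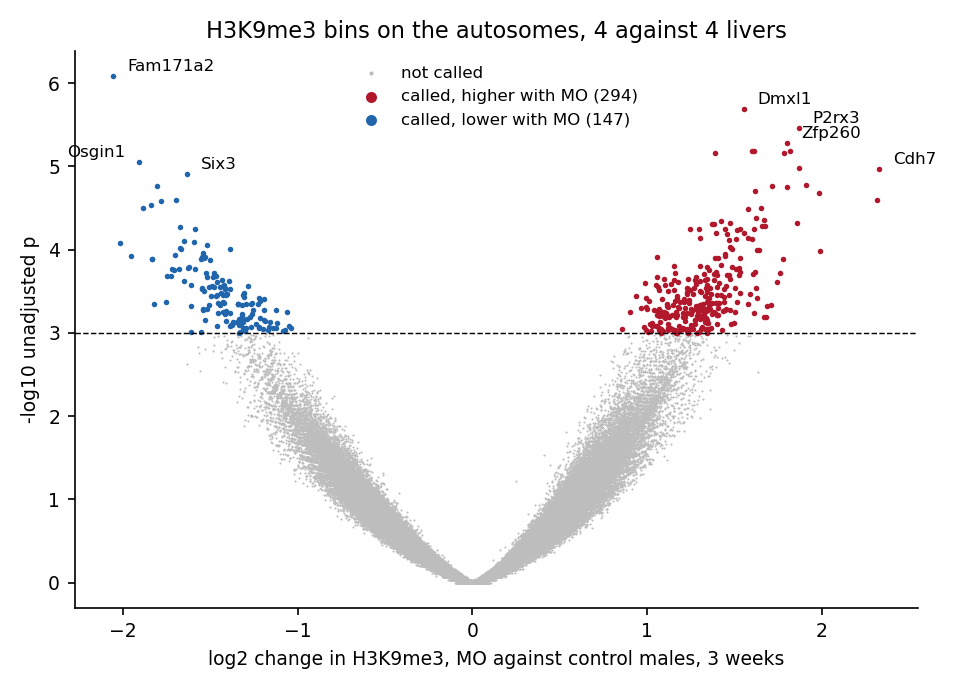
Each point is 1 autosomal bin, with its log2 change (MO against control males, 4 against 4 livers, 3 weeks) on the x axis and -log10 of its unadjusted p in the authors' exact test on the y axis; the dashed line is the call threshold. The 294 red points (higher) outnumber the 147 blue points (lower), and 431 of the 441 called changes are at least 1 log2 unit in size.

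Among the 12 higher promoter and gene body bins with the smallest p-values, log2 changes ran from 1.39 to 1.87, which is 2.61- to 3.65-fold, with approximate SEs of 0.308 to 0.424. Their average signal ran from 3.34 to 6.06 CPM (counts scaled to library size), around the median of 4.10 CPM over all bins. Among them the smallest p belonged to a bin in an exon of a retained-intron transcript of Dmxl1, a partner of the vacuolar proton pump, on chromosome 18 (1.55 ± 0.33, SE; p = 2.03e-06 in the authors' exact test, FDR 0.211). A bin in an intron of P2rx3, an ATP-gated channel of sensory neurons, rose by 1.87 ± 0.40 (SE; chromosome 2, 85012313 to 85012717). Unc13a, which primes synaptic vesicles for release, carried its bin 372 bp upstream of the start site (1.6 ± 0.35, SE). A bin in the 3′ UTR of Actl6b, the neuronal actin-like subunit of BAF chromatin remodellers, rose by 1.80 ± 0.42 (SE).

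Zfp260, a zinc finger transcription factor, had an intronic bin with a log2 change of 1.80 ± 0.40 (SE; chromosome 7, 30102094 to 30102594). An intron of Itgam, the integrin CD11b of myeloid cells, rose by 1.87 ± 0.42 (SE). Itpr2, the main inositol trisphosphate receptor of hepatocytes, held 2 called intronic bins, both higher, at 1.58 and 1.38. Clspn, a DNA replication checkpoint adaptor, had the strongest signal of the group (6.06 CPM) and the smallest change (1.39 ± 0.31, SE). The others were bins at Sp3os (1.61), a transcript antisense to Sp3, at the microRNA gene Mir5103 (1.78), in Hspbap1 (1.71) and at the 5S ribosomal RNA copy n-R5s92 (1.82). Reads of n-R5s92 could come from its near-identical copies. The bins of Dmxl1, Actl6b and n-R5s92 lay nearest to the start sites of other genes (Tnfaip8, Tfr2 and Mir467h), as did the lower bin of Sbno2 (Gpx4), and are named here by the gene that holds them.

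The 12 lower bins ran from -2.06 to -1.52, with SEs of 0.388 to 0.513 and signals of 2.99 to 4.14 CPM. The smallest p of the comparison was that of a bin 1459 bp downstream of the start of Fam171a2, a membrane protein gene (chromosome 11, 102445635 to 102446135; -2.06 ± 0.42, SE; p = 8.20e-07 in the authors' exact test, FDR 0.211). St6galnac3, a sialyltransferase, had called bins in both directions, a first-intron bin at -1.80 ± 0.42 (SE) and another bin at 1.48. Lower bins lay 1301 bp upstream of Yeats2 (-1.70), a histone acylation reader of the ATAC acetyltransferase complex, and in introns of Ube2v1 (-1.78), a ubiquitin-conjugating enzyme variant, and Slc41a3 (-1.67), of a magnesium transporter family.

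Lower bins also lay in an intron of Prrx2 (-1.89), a homeobox factor of limb and craniofacial mesenchyme, and 744 bp past the start of Nos3 (-1.59), the endothelial nitric oxide synthase. The remaining ones were in Nol4l (-1.84), Ccdc60 (-2.02) and an exon of Sbno2 (-1.52), and at the promoters of 1110065P20Rik (-1.67) and 1110032F04Rik (-1.59), with GC contents of 74.5% and 64.9%. Median GC content was 48.4% for the 12 higher bins and 56% for the 12 lower ones. All 12 higher and all 12 lower bins remained called when the median change of bins of like GC content and signal was subtracted.

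The distal intergenic bins with the smallest p-values were higher near Cdh7 (2.33 ± 0.53, SE), En1 (1.91 ± 0.44, SE) and the pseudogene Mnd1-ps (1.62 ± 0.38, SE), at 1004307, 142621 and 579022 bp from the respective start sites. Lower ones were found near Osgin1 (-1.91 ± 0.43, SE), an oxidative stress response gene, Six3 (-1.64 ± 0.37, SE) and Tubb6 (-1.65 ± 0.42, SE), at 13196, 16158 and 15796 bp. En1 and Six3 encode homeobox factors of brain development. The Osgin1 bin belonged to a peak of 11263 bp, and 90.6% of the bases of the Six3 bin were soft-masked.

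**Figure D2:**
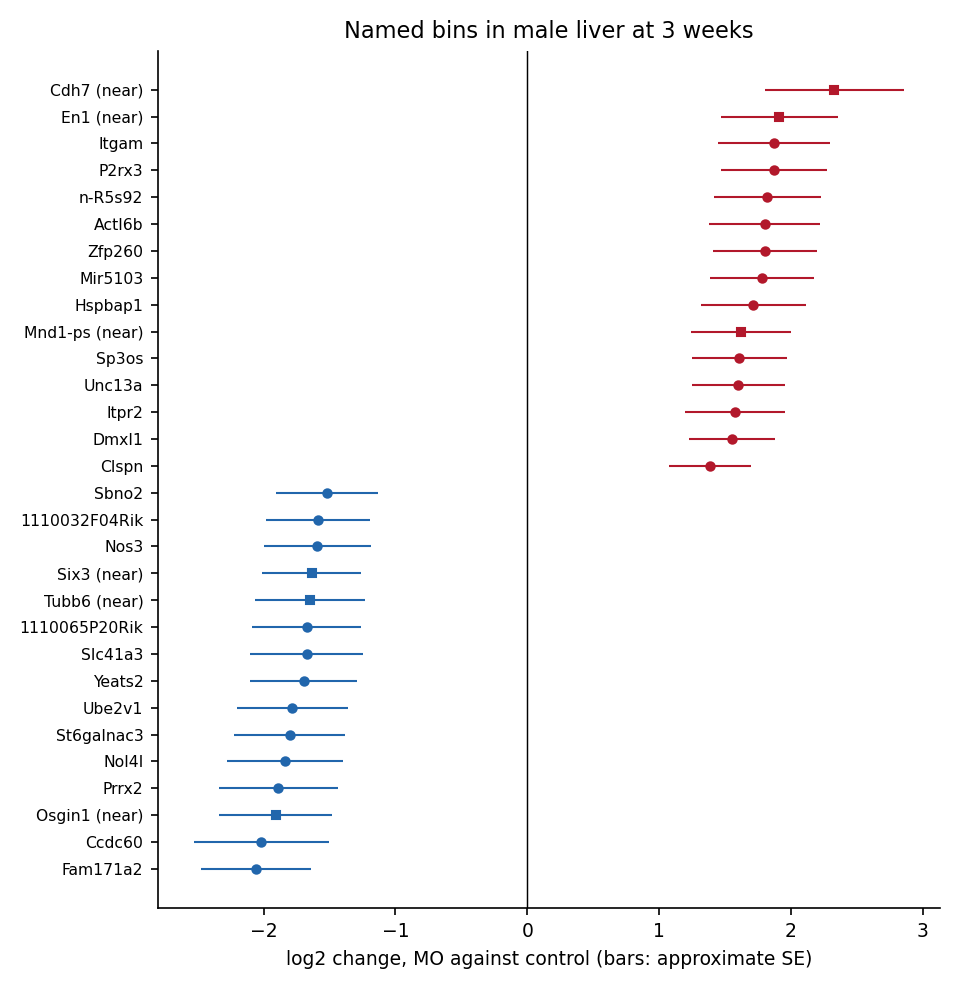
Points give the log2 change of each named bin, MO against control males at 3 weeks, with bars of 1 approximate SE; circles are promoter or gene body bins and squares are distal intergenic bins, named by the nearest gene. All bars stay clear of 0, as the choice by smallest p requires, from -2.06 at Fam171a2 to 2.33 near Cdh7.

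The direction of the called bins differed with genomic feature. At promoters, within 3 kb of a start site, 33 called bins were higher and 50 lower (39.8% higher, exact binomial interval 29.2 to 51.1%). In gene bodies 140 were higher and 67 lower, and in distal intergenic sequence 121 were higher and 30 lower (80.1%, interval 72.9 to 86.2%). Later introns leaned to higher (67 against 25) more than first introns (30 against 24), exons held 32 higher and 15 lower, and 3′ UTRs 11 higher and 2 lower. The medians over all bins moved the same way but were small, -0.074 within 1 kb of a start site and 0.063 in intergenic sequence. In peaks of a single bin, promoters held only 10 calls, of which 8 were higher, so the lower promoter bins came mostly from longer peaks. The share called was similar in the classes, 0.265% at promoters, 0.309% in gene bodies and 0.25% in intergenic sequence, against 0.278% of all bins.

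Calls were spread over the genome. Each autosome held between 13 (chromosome 16) and 38 (chromosome 7) called bins, more of them higher than lower on every one of the 19. No called bin lay within 10 kb of another of the same direction, and 21 lay within 100 kb of one, forming 9 pairs and a single run of 3. Only 1 bin of each peak is listed, so called neighbours within a peak could not appear. The number of such neighbours among randomly placed calls was not computed. That run was on chromosome 10, where bins near Zfp873 (1.09 ± 0.31, SE), in an intron of BC024063 (0.96 ± 0.28, SE) and near AU041133 (1.07 ± 0.31, SE) were all higher within a zinc finger gene cluster. Of the 9 pairs, 2 lay in the zinc finger cluster of chromosome 7: Zfp420 (1.34) with a bin near Zfp27 (1.21), and Zfp260 (1.80) with a bin near Zfp146 (1.40). The lower pairs included Tsc2 (-1.41), an inhibitor of mTORC1, with Tbl3 (-1.34). These pairs were picked out after their values were seen. The nearest other listed bin within 20 kb had the same sign for 54.5% of the higher and 56.9% of the lower called bins, against 50.9% of all bins.

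Change followed base composition and repeat content. In the decile of bins with the lowest GC content (up to 48.5%), 79 called bins were higher and 6 lower, and the median change was 0.15. In the decile with the highest GC content (above 59.4%), 11 were higher and 23 lower, with a median of -0.052. Across the 158810 bins, the Spearman correlation of change with GC content was -0.11, and over single-bin peaks it was -0.026. Bins with more than 80% soft-masked bases had 48 higher and 4 lower calls and a median of 0.15, while bins with up to 10% (but not 0) had 44 higher and 49 lower and a median of -0.038. Bins with no soft-masked base had 45 higher and 29 lower calls and a median of -0.026. The Spearman correlation with the soft-masked share was 0.12, and 0.10 over single-bin peaks. Bins of a library share its base composition and mapping, so these correlations describe the libraries and carry no test. Of the 79 higher calls of low GC content, 31 were intergenic, 32 were over 50% soft-masked and 6 were in zinc finger genes. When the GC and signal trend was subtracted, 369 bins were called and 59.3% of them were higher. Which of base composition, repeats and the mark itself moved with MO cannot be told apart from these tables.

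The bins with the highest average signal leaned to higher H3K9me3. In the top 1% by average signal (1589 bins, at least 7.22 CPM, a class set after the values were seen), 79.4% had a positive change, against 52.1% of all bins, and the median was 0.25. At p under 0.05, 226 of them were higher and 7 lower, and all 9 called ones were higher. These bins were rich in repeats: 58.8% were distal intergenic, against 38.1% of all bins, and their median soft-masked share was 81.0%. Signal was not divided by input or by bin width, so a strong mark cannot be told apart from repeat copies here. The 423 of them with under 50% of their bases soft-masked had a median of 0.32, and the 495 in single-bin peaks had 0.19. With the GC and signal trend subtracted, the median of the 1589 bins was 0.10. The 9 called bins ranged from 0.85 to 1.06 and included an exon of Zfp316 (0.85 ± 0.26, SE; 9.64 CPM) in a peak of 14635 bp. In females the same class of 1337 bins had a median of 0.17, with 102 higher and 10 lower at p under 0.05.

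**Figure D3:**
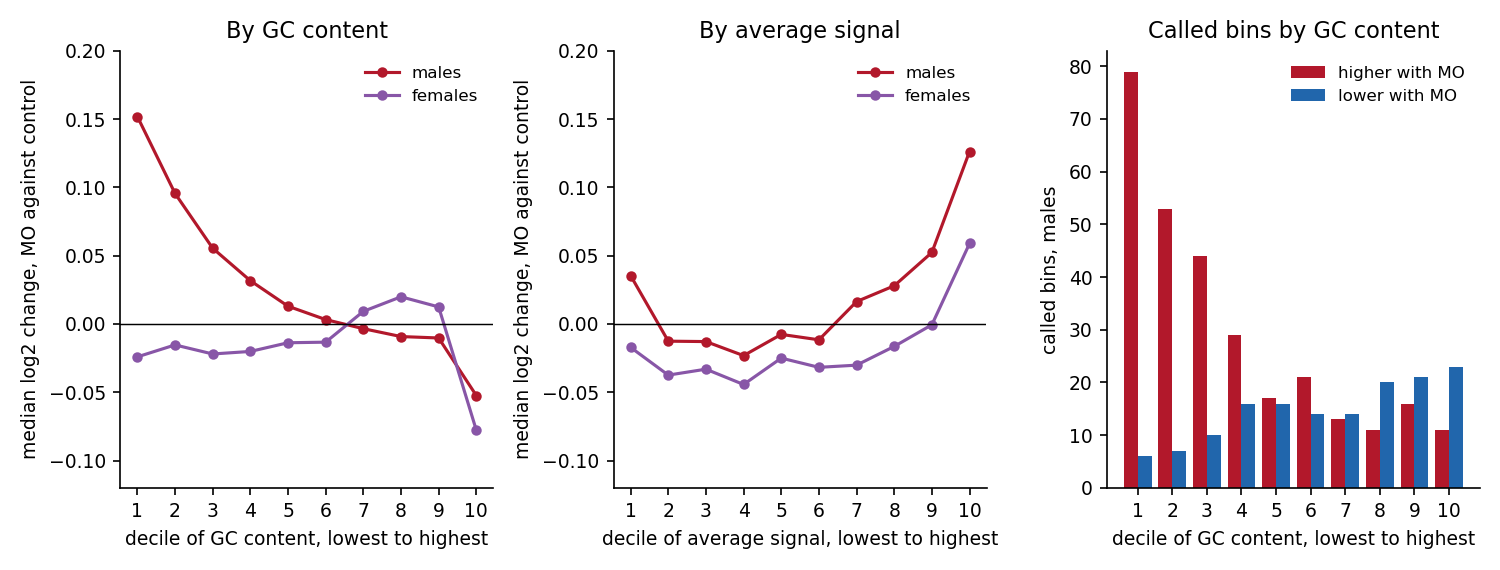
Left and middle, median log2 change of bins (MO against control, 3 weeks) in deciles of GC content and of average signal, males red and females purple; right, number of called male bins per decile of GC content. Male medians fall from 0.15 to -0.05 with GC content, female medians stay between -0.08 and 0.02, and in both sexes the decile with the highest signal has the highest median.

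Zinc finger genes held the largest number of called bins among the gene lists, 10, and also the largest number of genes. H3K9me3 is known to cover the 3′ exons that encode the zinc finger repeats of these genes. Of 1357 promoter and gene body bins in 361 Zfp-type genes, 149 were higher and 51 lower at p under 0.05, that is 11.0% and 3.76%, against 4.74% and 4.49% of the bins of other genes. Their median change was 0.12, while that of all promoter and gene body bins was -0.00051. It was 0.06 with the GC and signal trend subtracted, and -0.05 for bins within 1 kb of a start site. At p under 0.001, 9 were higher and 1 lower, 0.737% of the bins against 0.295% of all promoter and gene body bins, which would give 4.00 calls. The counts differed by position in the gene: of 144 exonic bins 28 were higher and 4 lower (median 0.27, and 0.13 with the trend subtracted), of 116 bins in 3′ UTRs 16 were higher and 6 lower (0.25, and 0.11 with it subtracted), and of 316 bins within 1 kb of a start site 18 were higher and 18 lower.

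Besides Zfp260, the called bins were in Zfp763 (1.56), Zfp407 (1.46), Zfp420 (1.34), Zfp329 (1.15), Zfp867 (1.12), Zfp286 (1.10), Zfp469 (1.31) and Zfp316 (0.85), and the lower one was at the promoter of Zfp423 (-1.39), a factor of neural and fat cell differentiation. At p under 0.05, 106 of the 361 genes had a higher bin, 41 a lower one and 9 both. By chromosome, with no test of the differences, counts varied: on chromosome 17, 22 of 102 bins were higher and 0 lower (median 0.34, and 0.24 with the trend subtracted), on chromosome 13, 15 were higher and 1 lower of 104 (0.30, and 0.12), on chromosome 7, 43 were higher and 7 lower of 286 (0.14, and 0.07), whereas on chromosome 4, 3 were higher and 4 lower of 63. Zfp445, whose protein guards imprinted loci, had 6 bins with changes from 0.06 to 0.81, 4 of them at p under 0.05. In females, 62 of 1139 zinc finger bins were higher and 36 lower, that is 5.44% and 3.16% against 3.76% and 4.6% of the bins of other genes. Their median was -0.007 against -0.044 in other genes, and the exonic ones had a median of 0.16. Zinc finger genes have near-identical copies between which reads can be split, so values of single genes are uncertain. GC content and signal moved with these counts. Median GC content was 53.1% in all zinc finger bins against 53.7% in other genes, and 51.6% against 55.8% in the decile with the highest signal. That decile held 45 higher and 1 lower of 208 zinc finger bins (median 0.33, and 0.085 with the trend subtracted), and the other 1149 bins had a median of 0.065.

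Of the other repressed gene families, the clustered protocadherins, cell surface identity molecules of neurons, had the highest median, 0.30 over 60 bins, with 9 higher and 2 lower at p under 0.05. Pcdha1 had the smallest p (0.82 ± 0.29, SE). Their median in females was 0.34. Vomeronasal receptor genes had a median of 0.16 over 131 bins, with 7 higher and 2 lower, and Vmn2r13 had the smallest p (1.00 ± 0.32, SE). Their median was 0.078 with the GC and signal trend subtracted. Over all 633 bins assigned to these genes, intergenic ones included, 59 were higher, 5 lower and 4 called, with a median of 0.19. Of all autosomal bins, 5.08% were higher and 3.75% lower at p under 0.05, and 0.278% were called. Hox genes had 6 higher and 7 lower bins, although their median was 0.14. A bin at the start of Hoxa4 was called higher (1.19 ± 0.36, SE). Neuronal adhesion genes and large fragile-site genes gave 68 higher and 50 lower of 1572 bins, with 3 called bins, in introns of Cdh4 (1.18 ± 0.32, SE) and Dscam (1.18 ± 0.35, SE) and at Grid1, which is also in the next list. The share of all promoter and gene body bins called, 0.295%, would give 4.64 there, so the 3 are near the background. Genes for potassium, glutamate and GABA channels leaned the other way, with 31 higher and 69 lower of 982 and a median of -0.07. It was -0.30 for the 121 bins within 1 kb of a start site, 22 of the 982 bins were in peaks over 10 kb, and in females 44 were higher and 34 lower of 882. The promoter of the glutamate receptor Grid1 was called lower (-1.31 ± 0.39, SE), a call that was lost with the GC and signal trend subtracted (-1.19). Against these counts, 9.31% of all promoter and gene body bins had p under 0.05, 4750 higher and 4405 lower. The share at that p rose with peak length, from 6.56% in single-bin peaks to 51.1% in peaks over 10 kb. Median peak length was 2431 bp for the protocadherins and 2214 bp for Hox genes, against 910.5 bp for all. Counts of these 2 families are therefore not comparable with that share.

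The 6 lists of lipid, bile acid and insulin pathway genes held 588 bins and 0 called ones, where the 0.295% of all promoter and gene body bins that were called would give 1.73, so the count is near the background. Fatty acid oxidation and ketogenesis had 92 bins, 4 higher and 10 lower at p under 0.05, with a median of -0.12, which was -0.025 over all 142 bins assigned to these genes and 0.038 over the 28 within 1 kb of a start site. The lowest p there was that of a bin 2090 bp from the start of Cpt1a, the gate of mitochondrial fatty acid import (-1.45 ± 0.45, SE; p = 0.00108 in the authors' exact test, just over the threshold). Lipid droplet and fat uptake genes had 2 higher and 3 lower of 63 (Lpl, -1.04 ± 0.37, SE), and fatty acid and triglyceride synthesis 11 higher and 7 lower of 199 (Agpat3, 1.11 ± 0.36, SE). Cholesterol synthesis and uptake had 5 higher and 6 lower of 71 (Lss, 1.09 ± 0.36, SE). Bile acid genes had none at p under 0.05 among 18 bins. Insulin signalling and glucose output had 7 higher and 7 lower of 145, led by Igf1r (-1.33 ± 0.42, SE). The median there was -0.042, and -0.43 over the 27 bins within 1 kb of a start site, against -0.074 for all such bins.

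Among detoxification genes, cytochrome P450 genes had 11 higher and 11 lower of 185 bins, 11.9% at p under 0.05 against 9.31% of all promoter and gene body bins. They held 2 called bins, where 0.295% of all such bins were called, at the promoters of Cyp2d9 (1.35 ± 0.36, SE) and its neighbour and paralog Cyp2d12 (1.14 ± 0.33, SE; named after its value was seen), whose reads could be shared. Cyp2d9 encodes a male-predominant steroid hydroxylase. Glutathione and quinone detoxification had 2 higher and 2 lower of 65 (Gsta4, 1.06 ± 0.41, SE). Acute phase and complement genes had 5 higher and 3 lower of 71 (Itih1, -1.02 ± 0.37, SE), and interferon and Toll-like receptor genes 6 higher and 5 lower of 92 (Gbp4, -1.15 ± 0.41, SE).

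Writers, readers and erasers of H3K9 methylation had 3 higher and 7 lower of 81 bins (Atf7ip, a SETDB1 partner, 1.02 ± 0.38, SE). Imprinted genes had 14 higher and 12 lower bins in 33 genes, 10.6% of their bins against 9.31% of all promoter and gene body bins, and the smallest p there was in an intron of Trappc9 (-1.30 ± 0.41, SE). Fetal liver genes had 6 higher and 5 lower of 84, with Igf2bp2, an RNA-binding protein of fetal growth, called lower 2707 bp upstream of its start (-1.29 ± 0.39, SE). Clock genes had 5 higher and 7 lower of 141, with an intron of Nr1d2, a repressor of the clock, called higher (1.17 ± 0.33, SE). At the 0.295% called of all promoter and gene body bins, the fetal liver and clock lists would hold 0.248 and 0.416 calls, and each held 1. Ribosomal protein genes had 4 higher and 8 lower of 88 (Rpl3l, 1.16 ± 0.40, SE), and lineage factors of other tissues 17 higher and 16 lower of 343 (Dlx4, 0.86 ± 0.33, SE). Hepatocyte markers held only 5 bins in 4 of 10 genes, and markers of other liver cells 94 bins with 0 higher and 4 lower (Pecam1, -1.11 ± 0.41, SE). A repressive mark cannot show cell identity as expression does, so the label liver was not checked further.

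**Figure D4:**
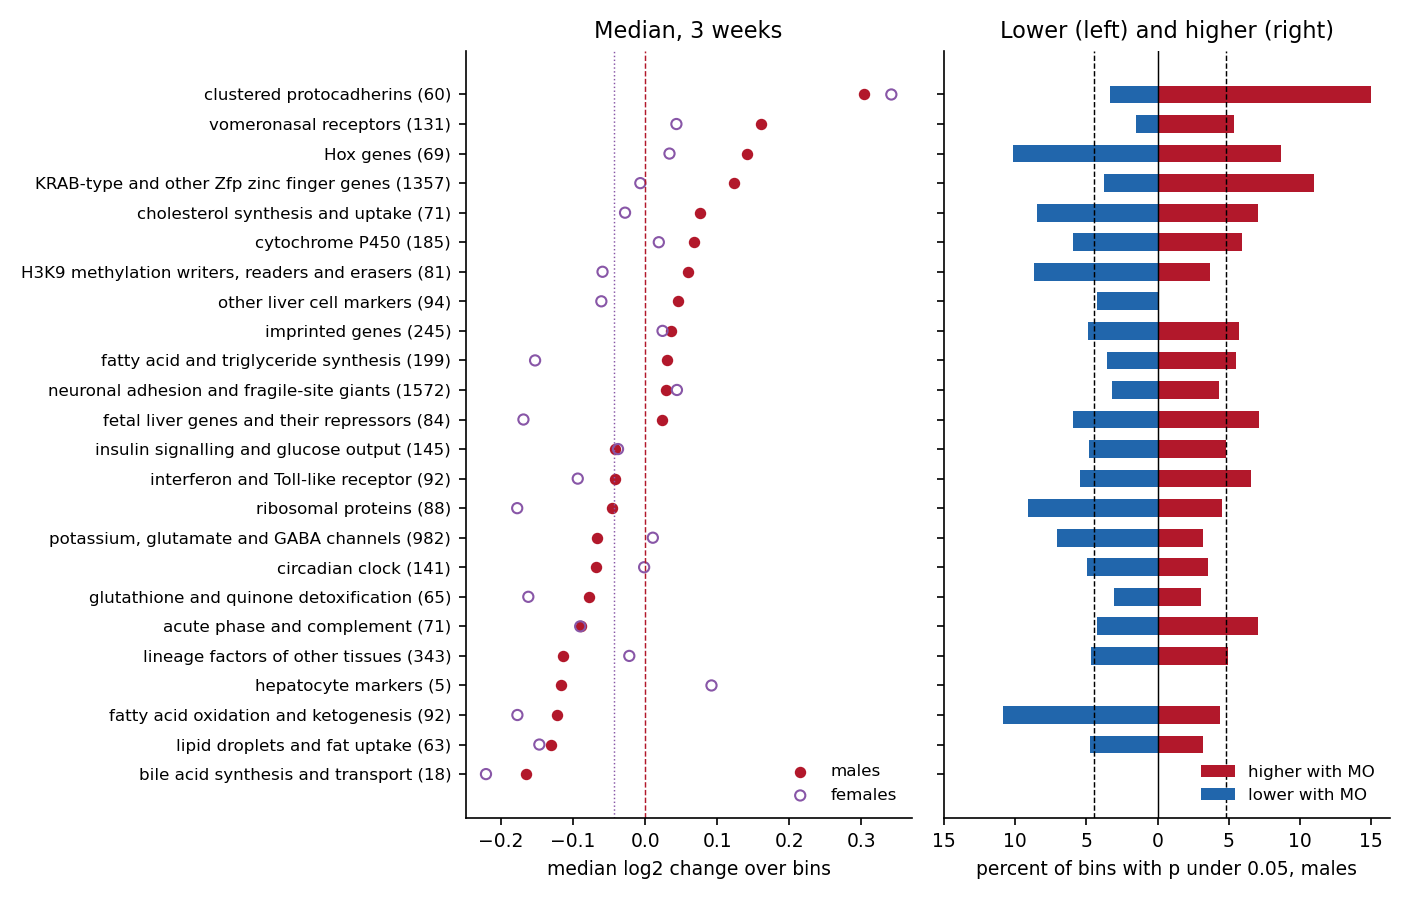
Left, median log2 change of promoter and gene body bins of each gene list in males (filled) and females (open) at 3 weeks, with the median of all such bins as dashed (males) and dotted (females) lines; the number of male bins is in parentheses. Right, percent of each list's male bins with p under 0.05, higher to the right and lower to the left, with dashed lines for all promoter and gene body bins; zinc finger genes reach 11.0% higher and 3.76% lower.

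The longest peaks leaned to lower H3K9me3. In the 1420 peaks over 10 kb the listed bin was lower with MO in 68.9%, and 206 were higher and 519 lower at p under 0.05. That is 51.1% of them, against 6.56% of single-bin peaks. Females at 3 weeks had 34.1% against 6.59%, and males at 8 weeks 28.3% against 5.52%. The share was larger in long peaks in each comparison, so it is not read as an amount of change. The quartiles of change in these peaks were -0.85 and 0.56 around a median of -0.66, while in single-bin peaks the median was 0.05. Between these lengths the median went from 0.04 (up to 1 kb) and 0.02 (1 to 2 kb) to -0.05, -0.18 and -0.40 (2 to 3, 3 to 5 and 5 to 10 kb). Since 1 bin stands for a long peak and few long peaks were listed with a change near 0, the median states which side prevailed and not the change of the whole peak. The median was -0.61 without promoter bins. For bins with a GC content under 55% it was -0.52, but the lean was weaker there than in all peaks over 10 kb. Of these bins 55.9% had a negative change, with 97 higher and 127 lower at p under 0.05. Their called bins were 4 higher and 3 lower.

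The longest peak, 50258 bp at Col11a2, a cartilage collagen gene, had a listed bin at -1.04 ± 0.39 (SE). Of the 12 longest peaks, 11 had a negative change, including those at Lemd2 (-1.32), an inner nuclear membrane protein gene, Prex1 (-0.90), Nrxn2 (-0.87), a presynaptic adhesion gene, Inf2 (-1.06), Cacna1h (-0.98) and Rbfox3 (-0.91). The exception was one of the peaks in Nphp4 (0.55 ± 0.32, SE). Some genes held several such peaks: all 6 in Macrod1 had a negative change (-1.03 to -0.51), as did all 5 in the glutamate receptor gene Grm4 (-1.16 to -0.73) and all 4 in Rbm19 (-1.08 to -0.82), whereas 4 of the 5 in Tiam1 had a positive change. These genes were picked out after their values were seen. In the genes with the most such peaks, 26 of 37 (Gm20388), 6 of 10 (Rbfox3) and 5 of 7 (Cux2) were negative, against 68.9% of all. The called broad peaks with the smallest p-values were those near Osgin1, in Prrx2 and in Sbno2, given above.

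Females at 3 weeks gave the opposite lean in these long peaks. Of 1447 female peaks over 10 kb, 41.9% had a negative change, and the median was 0.46. A female long peak covered at least 50% of the length of 890 male ones. In these, 633 male bins were lower and 528 female bins were higher, with medians of -0.69 and 0.52. Peak by peak, 260 were lower in both sexes, 155 higher in both, 373 lower in males and higher in females, and 102 the reverse, so the lean of each sex was not shown to be an opposition within the same peaks. The difference between the sexes was not tested. At 8 weeks, males had a median of -0.34 in 1413 peaks over 10 kb, with 53.1% negative.

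**Figure D5:**
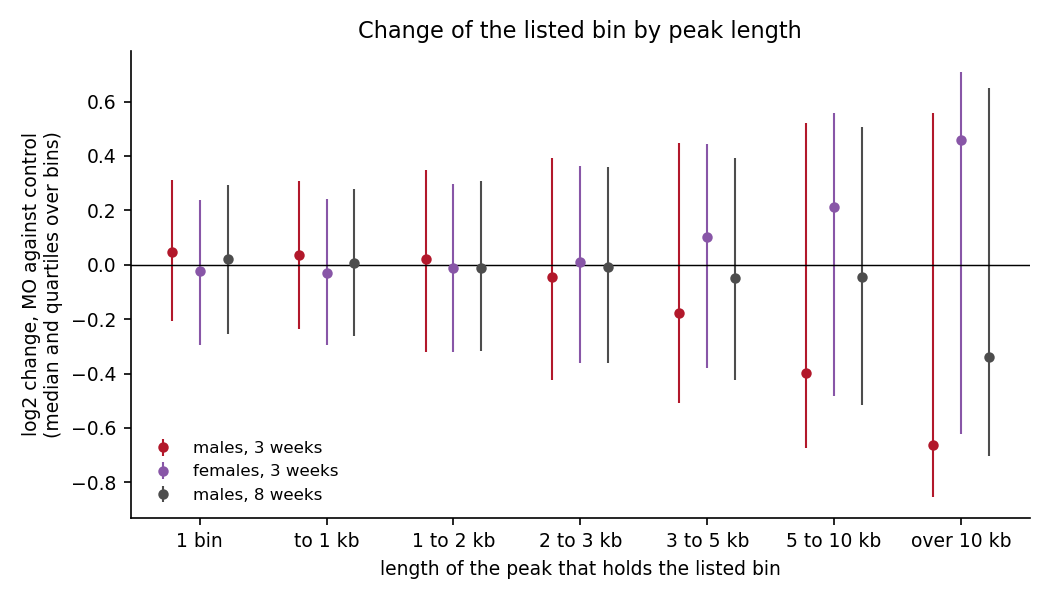
Median (points) and quartiles (bars) of the log2 change, MO against control, of the listed bin by the length of its peak, for males and females at 3 weeks and males at 8 weeks. The male median at 3 weeks falls from 0.05 to -0.66 with length and the female median rises from -0.02 to 0.46; the bars span 0 in every class.

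Bin by bin, the changes in males and females were weakly related. The female table had 133697 autosomal bins, 283 called (0.212%), 140 higher and 143 lower, and 7.74% with p under 0.05. A male and a female bin overlapped by at least 50% of each at 56395 places, and no library is shared by these comparisons. The Spearman correlation between the changes was 0.04 and 51.5% had the same sign. Of these pairs, 112 were called in males and 69 in females, and 1 in both. At p under 0.05 in both sexes there were 325 pairs, 7.90% of those with that p in males, where 6.25% of all pairs had it in females, and 9.23% of those in females, where 7.29% of all pairs had it in males, and 203 of the 325 had the same sign. The 81 that were called higher in males had a female median of -0.007, and the 31 called lower one of 0.01. A test of the difference at each pair, from the approximate SEs, left 0 pairs under an adjusted p of 0.05 (the smallest was 0.309), with 3639 at an unadjusted p under 0.05, so a difference between the sexes was not shown at any single bin either.

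Among bins that overlapped by at least 1 bp, 11 of the 162 called in males had p under 0.05 in females (6.79%, against 6.51% of all 73418 pairs, which is near the background), 7 in the same direction and 4 in the opposite one. The bins at Sh3pxd2a, a podosome scaffold (1.5 in males and 1.40 in females), and Fut8, the core fucosyltransferase of N-glycans (1.31 and 1.54), were called higher in both sexes. Bins at Parn (1.06 and 0.92) and Traf5 (1.05 and 0.56) had the same direction, and those at Usp14 (1.37 and -0.77) and Sdsl (-1.19 and 0.83) opposite ones. These genes were picked out after their values were seen. Of the 30 bins with the smallest p-values named first, 4 had a matching female bin, at Dmxl1 (0.15 ± 0.34, SE), Zfp260 (-0.03), Ccdc60 (-0.56 ± 0.47, SE) and near Mnd1-ps (-0.007).

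In 8-week-old males, which had eaten chow since weaning, the table of MO against control had 101386 autosomal bins, with 0.112% called and 6.51% at p under 0.05. Of the 294 bins higher at 3 weeks, 79 had a matching bin at 8 weeks, of which 34 had the same sign and 3 a p under 0.05, with a median of -0.08. Of the 147 lower ones, 36 matched, 19 with the same sign and 5 with p under 0.05, with a median of -0.07. Of the 30 bins with the smallest p-values named first, those with a match were at Dmxl1 (0.35 ± 0.41, SE), Mir5103 (-0.70 ± 0.46, SE), Ube2v1 (0.56 ± 0.44, SE) and near Six3 (-0.46 ± 0.39, SE), all within 2 SEs of 0.

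Some of these bins were also listed in the comparison of control males at 3 and 8 weeks. That comparison shares the CM_3w libraries, so bins chosen for a large change with MO are expected to have the opposite sign in it even where age changes nothing, and nothing is read from the sign. The values, as the log2 change of 3 against 8 weeks, passed the authors' FDR of 0.05 at n-R5s92 (-1.62 ± 0.44, SE, beside 1.82 with MO), Hoxa4 (-1.29 ± 0.37, SE, beside 1.19) and Igf2bp2 (1.54 ± 0.43, SE, beside -1.29). They did not pass it at the other 14 of 17 named bins with a value, such as the bin near Tubb6 (1.21 ± 0.45, SE; FDR 0.116) and that at Dmxl1 (-0.75 ± 0.41, SE; FDR 0.374). In that comparison, 4.36% of all 147360 autosomal bins passed it, but the 17 were chosen for large changes against the shared libraries, which raises the size of their age values too, so nothing is read from their count.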

How the data were processed

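H3K9me3 ChIP-seq of frozen male liver was compared between MM_3w and CM_3w, with 4 biological replicates each. Per the study's methods, the authors mapped reads to GRCm38 (mm10) using BWA and called broad peaks by MACS2. Blacklisted regions were then left out, and peaks seen in a minimum number of replicates of a condition were retained. Peak sets of the conditions were merged, and peaks above 500 bp were divided into bins. The authors counted reads by featureCounts, tested bins by the exact test in edgeR and annotated them by ChIPseeker.

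The deposited tables hold log2 fold changes and log2 CPM, both computed by the authors, with unadjusted p-values and FDR; these are their comparison columns, used as measured values because the tables hold nothing per library (0 columns of per-sample values). Depth per library is unknown. The deposited p-values were not recomputed. Called means p under 0.001 in the authors' table.

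An approximate SE was the log2 change divided by the normal quantile of its p (where p was large, the median SE of bins of the same signal decile). GC content and soft-masked share came from GRCm38, host genes from the transcript in the annotation by GENCODE. Bins of other comparisons were matched where they overlapped by at least 50% of each; the difference between sexes was divided by its SE, and p-values were adjusted by Benjamini-Hochberg over all pairs. Trend removal subtracted the median of each GC decile by signal decile and was tested on simulated data. Named bins were the 12 higher and 12 lower promoter or gene body bins with the smallest p (1 per gene), 3 higher and 3 lower intergenic bins, the bin with the smallest p under 0.01 of each list, and runs of 3 or more. Members and lists were chosen with earlier results of these data known. Python 3 with pandas and scipy was used. The 4 inputs and 2 of the 6 tables were not used here beyond counting rows, nor were X and Y rows beyond counts.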

Additional observations from a re-analysis of the deposited data

How the results depend on the processing

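No paired analysis was possible because the tables hold no value per library, and for the same reason no replicate could be left out, so whether 1 library decides a call was not tested. The number of called bins was 3287 at p under 0.01 (61.7% higher), 61 at p under 0.0001 (72.1%), 12 at the authors' FDR under 0.25 (83.3%), and 0 at FDR under 0.05 or with adjustment over the listed autosomal bins alone. It was 191 for bins with signal above the median (72.8% higher) and 141 in single-bin peaks (83.7%), both with fewer bins tested. With the GC and signal trend removed 59.3% were higher, and 58.6% among bins with under 50% soft-masked bases. Of the 441 bins, 291 were also called with that trend removed. Merging within 10 kb, a minimum log2 change of 1 and adding X left the count within 1.5 times. Alternatives chosen after seeing the data gave 227 calls (76.7% higher) when p was multiplied by the number of bins of the peak, and 1024 (89.5%) when the median of each peak length class was subtracted; 334 of the 441 were kept there.

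The Spearman correlation of change with GC content was -0.026 in single-bin peaks and -0.14 for bins with signal above the median, where that with signal was 0.10 and with the soft-masked share 0.15. The Spearman correlation between males and females was 0.10 over 122 bins of identical coordinates. Called bins near another numbered 0 within 10 kb and 133 within 1 Mb. The median of broad peaks was -0.46 above 5 kb, -0.78 above 20 kb and -0.52 under 55% GC. In that last set 55.9% were negative, against 68.9% of all peaks over 10 kb. The median of the bins with the highest signal was 0.13 for the highest 10%, and 0.10 for the highest 1% with the trend removed. Of 36 named called bins, 35 stayed called with the trend removed; Grid1 did not (-1.19). Of 72 list medians under alternatives, 11 moved by over 0.1. Bins with low signal limit single calls, at a median of 4.10 CPM.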

Other observations

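The male table held 532 bins on X and 15 on Y, and that of females 6517 on X and 0 on Y. The bins nearest to the threshold were, inside it, those at Dnajc4 (log2 change -1.34), Slc16a9 (1.29) and 1700010I02Rik (1.17), and outside it those at Rin3 (1.04) and 2900026A02Rik (1.31). Of 290 called promoter and gene body bins, nearly all lay in different genes, 288 in number, and only Itpr2 and St6galnac3 held 2. Large genes could carry bins of both directions below the threshold: Wwox, a fragile-site tumour suppressor gene, had 4 bins higher (0.98 to 1.27) and 1 lower (-1.05) at p under 0.01 in the authors' exact test.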
